A study of Mus musculus with 3 samples.

Results

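Periostin (Postn), transforming growth factor beta-induced protein (Tgfbi), tenascin-C (Tnc), tenascin-N, also called tenascin-W (Tnn), and tenascin-X (Tnxb) are secreted matricellular proteins, 5 of the 21446 genes whose identifiers all 3 libraries share. They were taken by name and joined by gene identifier, a rule that itself uses no measured value. The members were, however, chosen with earlier results of these data known. Matricellular proteins sit in the extracellular matrix without being its main scaffold, where they bind collagens, fibronectin and integrins and so tune how fibers assemble and how cells adhere to them. Postn and Tgfbi are fasciclin-domain proteins, and periostin is a hallmark of the periodontal ligament, where it supports collagen cross-linking. The tenascins are large oligomeric glycoproteins: tenascin-C appears in developing, loaded or wounded connective tissue, tenascin-N around bone and dental tissue, and tenascin-X in loose connective tissue together with fibrillar collagens.

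Cells came from molars of Pthrp-mCherry knock-in mice, a reporter line in which mCherry follows the parathyroid hormone-related protein gene, mostly on a C57BL/6 background and with both sexes used. They were sorted for mCherry from cells pooled over mandibles at P15, P25 or 8 weeks of age and profiled with the 10x Chromium 3' v3.1 chemistry, with 1 library per age. All libraries carried the knock-in allele, and the number of animals per pool was not given in the sources used here. A library is therefore a pool and a time point at once, and changes with age are described without a test.

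The libraries held 12926, 8971 and 5192 cells with 188157997, 169712592 and 46234378 unique molecular identifiers (UMIs), in the order P15, P25 and 8 weeks, which is kept throughout when 3 values are given. They shared 26, 16 and 13 cell barcodes (P15 with P25, P15 with 8 weeks, P25 with 8 weeks). The P25 counts came from Cell Ranger 6.0.1 with a larger gene reference and the others from 6.1.2, so at P25 software, reference and age cannot be told apart. Cells were placed by the UMIs of a marker gene into gates: Ibsp, the mineralized matrix protein bone sialoprotein; Ifitm5, a membrane protein of mineralizing cells; Hand2, a transcription factor; Mmp3, a matrix-degrading protease; Rgs5, a signaling regulator of mural cells; and Pappa2, a protease acting on insulin-like growth factor binding proteins. Of the 27089 cells, 6764 entered these 6 mesenchymal gates, 2610 entered the gates of Ptprc (leukocytes), Epcam (epithelium) or Pecam1 (endothelium), and 17715 passed none. The sorted cells are labelled as cementoblasts with their precursors, so the 2610 leukocyte, epithelial and endothelial cells go against that label. The study itself listed epithelial, hematopoietic or immune, and endothelial clusters in its data, which also included a P6 library. Levels are in counts-per-million (CPM), the UMIs of a gene scaled to the UMIs of all shared genes of a gate in a library. Their exact 95% Poisson intervals, like the intervals of shares, cover counting error only.

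The Ibsp gate held 863, 1156 and 879 cells, the Ifitm5 gate 515, 733 and 242, and the Hand2 gate 200, 476 and 305. The marker list of a gate includes the gate marker itself, so a high sum in its own gate follows in part from the gating. The Ibsp and Ifitm5 lists also share a gene. The Ibsp marker list summed to 25050, 28930 and 34030 CPM in the Ibsp gate and 15430, 11200 and 19540 in the Ifitm5 gate. The Ifitm5 list summed to 3336, 1212 and 1722 CPM in the Ibsp gate and 11300, 19850 and 32800 in the Ifitm5 gate. At P15 the Ifitm5 gate thus held more UMIs of the Ibsp list than of its own, though such sums also depend on how abundant the listed genes are. The Hand2 list summed to 2578, 2910 and 2911 CPM in its gate. The Mmp3 gate was small, with 48, 24 and 31 cells, and its marker lay at 12420, 1530 and 1512 CPM. The Rgs5 gate, with 398, 126 and 172 cells, went against its label in the later libraries: Notch3 lay at 280.9, 49.8 and 4.27 CPM and Rgs5 itself at 4081, 493.7 and 404.2 CPM, while Ibsp in the same cells lay at 4136, 5390 and 5917 CPM. It is therefore called by its marker alone. The Pappa2 gate held 555, 29 and 12 cells, and its 12 cells at 8 weeks were left out of the tests. The Ptprc gate, with 851, 221 and 19 cells, and the Epcam gate, with 658, 601 and 66, served as the background of free RNA, and at 8 weeks the former is too small to bound much.

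Postn (ENSMUSG00000027750, chromosome 3 of GRCm38 from 54361109 to 54391037, forward strand) and Tnn (ENSMUSG00000026725, chromosome 1 from 160085029 to 160153580, reverse strand) were the members whose levels ran most alike across gates. The 250 bases before their annotated starts are shown for that reason, from RefSeq on GRCm38.p6, at chr3:54360857-54361106 on the forward strand for Postn and chr1:160153576-160153825 on the reverse strand for Tnn. Capitals mark the only match to the TATA motif TATAAA.
Postn: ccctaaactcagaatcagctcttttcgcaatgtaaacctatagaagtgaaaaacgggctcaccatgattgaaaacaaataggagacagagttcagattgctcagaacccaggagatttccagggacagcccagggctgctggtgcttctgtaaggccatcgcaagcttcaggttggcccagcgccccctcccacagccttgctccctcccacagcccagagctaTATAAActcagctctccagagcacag
Tnn: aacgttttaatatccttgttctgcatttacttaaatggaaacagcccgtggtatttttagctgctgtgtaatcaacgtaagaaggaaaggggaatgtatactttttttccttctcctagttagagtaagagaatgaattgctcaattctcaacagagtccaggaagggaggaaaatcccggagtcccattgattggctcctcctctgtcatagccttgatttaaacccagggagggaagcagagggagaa
In Postn the match spans bases 26 to 21 before the start, while the Tnn window holds none. Neither window holds the E-box CANNTG, the kind of site that bHLH factors such as Hand2 and Twist1 can bind, or GTCTG, the core of a SMAD site. Both strands were searched, and TATAAA was found in 12.37% of 32851 promoters of the same length, CANNTG in 66.22% and GTCTG in 42.19%. A match or its absence is a description of these letters in this window only.

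Postn was most abundant in the Hand2 and Pappa2 gates and least in the Ifitm5 gate. The Hand2 gate held it at 2453 CPM (2406 to 2501), 5072 (5026 to 5118) and 5668 (5593 to 5743). In the Ibsp gate it lay at 914.1 CPM (898.2 to 930.3), 2279 (2256 to 2302) and 3129 (3090 to 3168). In the Ifitm5 gate it lay at 194.3 CPM (185.8 to 203.2), 282.7 (275.3 to 290.3) and 257.5 (240.2 to 275.6). All 3 sums of the Ifitm5 gate were below every sum of the other mesenchymal gates. The Ptprc gate held 259.8, 368.4 and 37.54 CPM and the Epcam gate 104.4, 257.1 and 21.62. At P15 and P25 Postn in the Ifitm5 gate was thus below the Ptprc gate and above the Epcam gate. In the Ptprc gate the 5% of cells with the most Postn UMIs held 80.42% of them at P15 and 72.18% at P25. Its median cell held 0.0 and 46.24 CPM, against 55.52 and 38.29 in the Ifitm5 gate. In the other 15 of the 17 sums tested, the Postn interval lay above both background gates.

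**Figure D1:**
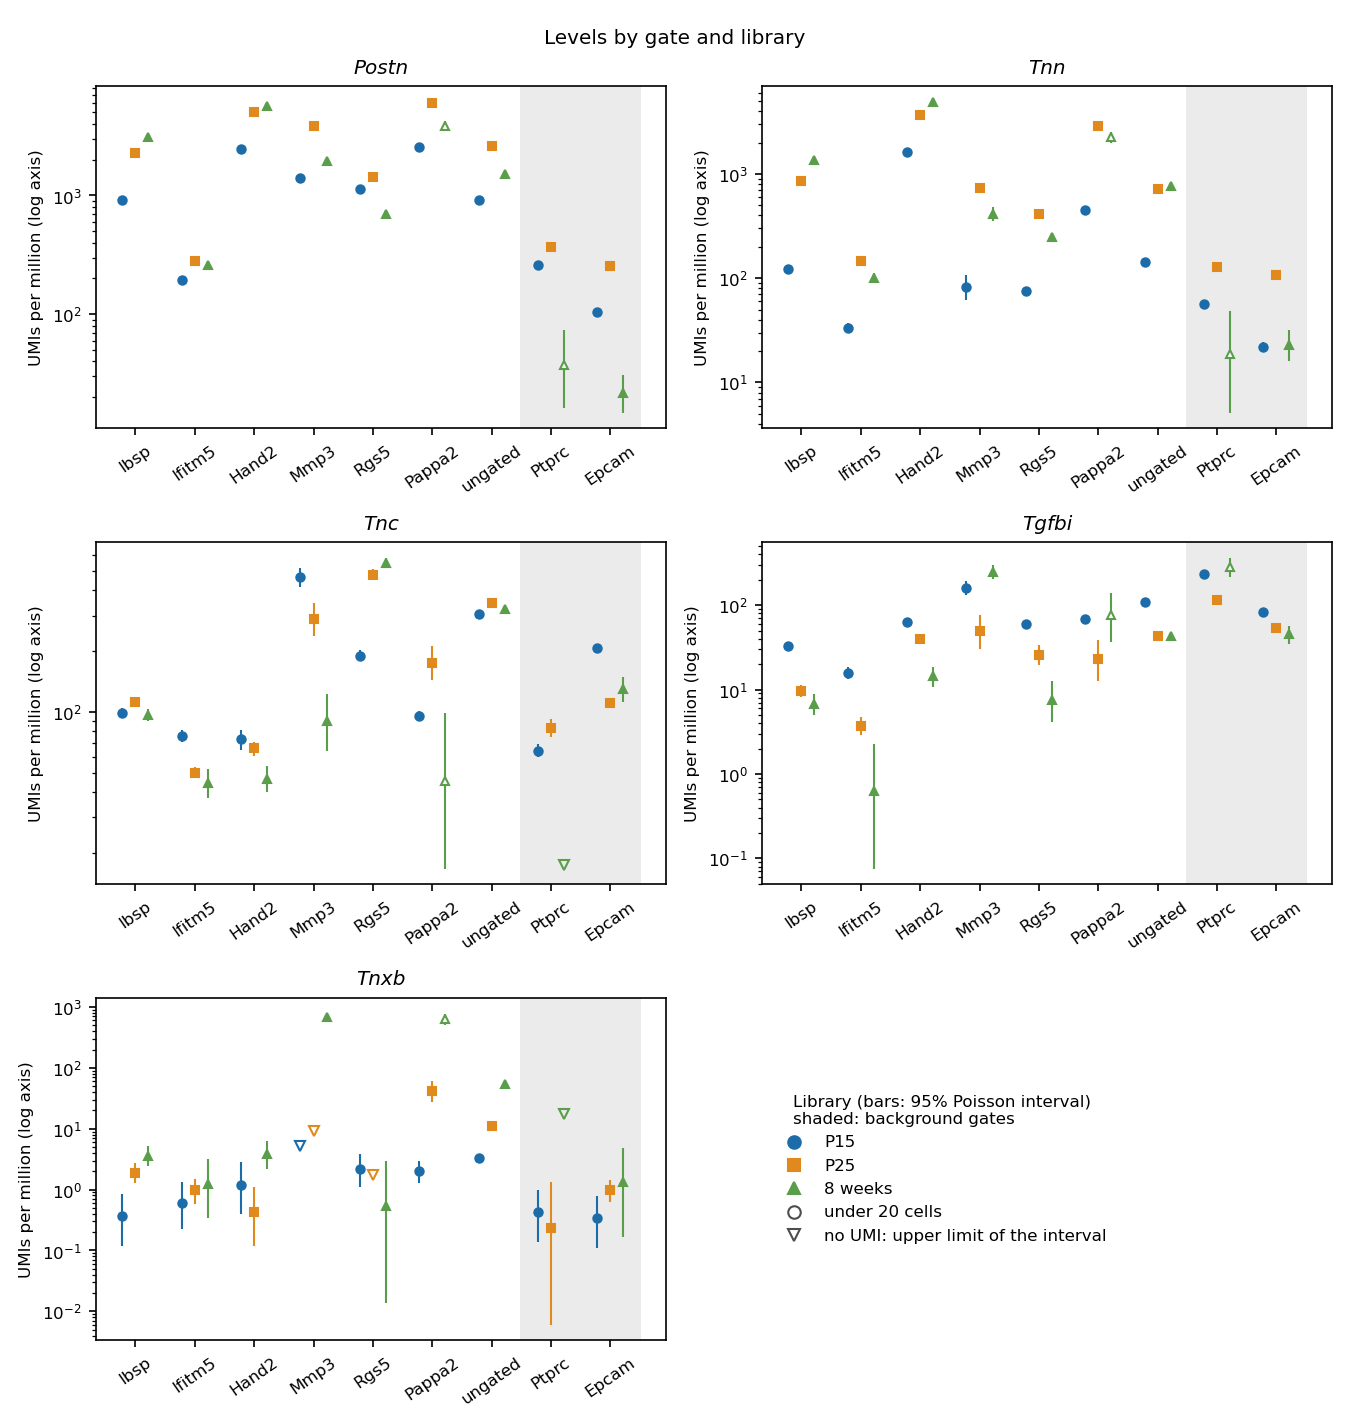
Levels of the 5 genes in CPM (log axis) by gate and library, with points for P15, P25 and 8 weeks, bars for the 95% Poisson interval, open points for gates under 20 cells and open triangles for the upper limit where no UMI was found. The shaded Ptprc and Epcam gates give the background: Postn and Tnn rise above it in most gates, Tgfbi is highest in the Ptprc gate at 8 weeks (286.2 CPM), and Tnxb stands out in the 8-week Mmp3 sum (675.1 CPM).

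The Ibsp and Ifitm5 gates both hold cells with mineralized-matrix genes, and comparing them asks which matricellular genes go with either. The Ifitm5 gate was filled before the Ibsp gate, and only 200, 416 and 88 of its cells passed no other mesenchymal gate. On the log2 scale, Postn was 2.92 ± 0.56 (SE, n = 3 sums a gate) higher in the Ibsp gate, the only member that passed (edgeR quasi-likelihood test, adjusted p = 0.0172), where 1.05% of the 12450 genes tested were higher and 1.78% lower. The difference was 2.99 without P25 and 2.55 without 8 weeks, each with a lost call (adjusted p = 0.523 and 0.255 from edgeR), and without P25 only 1 gene of all passed. Tnn differed by 2.84 ± 1.08 (adjusted p = 0.223 from edgeR), but with the library as a block, which takes out what the sums of a library share, by 2.66 (adjusted p = 0.00323 from edgeR). With the block 961 of the 12450 genes passed, against 353 without it. Tnc (0.70), Tgfbi (1.08) and Tnxb (0.84) did not pass, with adjusted p from edgeR of 0.589, 0.703 and 0.936.

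Each gate was then set against the mean of the other 5, which gave 7 calls among 30 contrasts of member and gate. Of all genes tested, 1.46% passed in either direction in the Ibsp gate, 12.7% in the Ifitm5 gate and 4.88% in the Hand2 gate. In the Mmp3, Rgs5 and Pappa2 gates these shares were 15.2%, 3.45% and 0.498%. The 1 call of Tnxb is given as a description, since Tnxb passed the filter on low counts through the sums where it is high, the Mmp3 gate among them. Postn was higher in the Hand2 gate by 1.56 ± 0.36 on the log2 scale (adjusted p = 0.0258 from edgeR), where 2.67% of genes were higher and 2.22% lower. In the Ifitm5 gate it was lower, with a log2 difference of -3.13 ± 0.51 (adjusted p = 0.00121 from edgeR), where 5.49% of genes were lower and 7.20% higher, and without P25 this just missed the threshold (adjusted p = 0.0505). The Ifitm5 gate was also lower than each other gate alone, with log2 differences of -3.92 from the Hand2 gate (6.44% of genes lower), -3.90 from the Pappa2 gate (2.81%), -3.04 from the Mmp3 gate (9.60%) and -1.90 from the Rgs5 gate (5.29%). No member passed in the Ibsp or Pappa2 gate, where 1.46% and 0.498% of genes passed in either direction. By mean level scaled with TMM factors, the order of gates for Postn was Hand2, Pappa2, Mmp3, Ibsp, Rgs5 and Ifitm5, and among neighbors in it only Rgs5 and Ifitm5 differed past the threshold (SE 0.53, adjusted p = 0.0427 from edgeR). The Hand2 call for Postn was lost without P25 (adjusted p = 0.161), without 8 weeks (0.246) and without the doubtful Rgs5 gate (0.0618, a setting added after seeing the data), with the log2 difference staying between 1.36 and 1.81. With the library block, 11 of the 30 contrasts passed, among them Postn higher in the Pappa2 gate (1.55, adjusted p = 0.0348 from edgeR). The block raised the count of all genes called in every gate, as in the Hand2 gate from 608 to 1275 of 12450. In the Ifitm5 gate that count went from 1579 to 2690 and in the Pappa2 gate from 62 to 91.

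**Figure D2:**
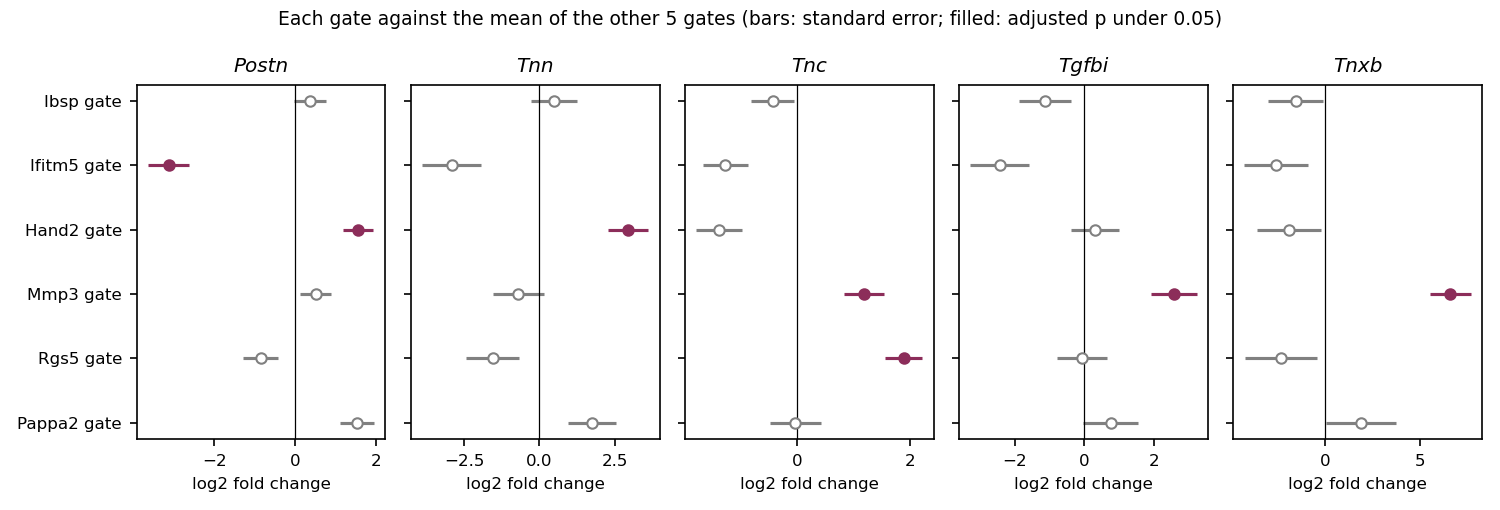
Log2 fold change (x axis) of each gene in each of the 6 gates (rows) against the mean of the other 5 gates, with bars for the standard error and filled points for an adjusted p under 0.05. The 7 filled points, of which that of Tnxb is a description, are Postn and Tnn in the Hand2 gate, Postn in the Ifitm5 gate, Tnc in the Mmp3 and Rgs5 gates, and Tgfbi and Tnxb in the Mmp3 gate.

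Tgfbi (ENSMUSG00000035493, chromosome 13 from 56609523 to 56639562), the fasciclin-domain relative of periostin that binds collagen and integrins, was a minor transcript in the mesenchymal gates. In the Ptprc gate it lay at 233.1 CPM (224.4 to 242.0), 115.8 (105.8 to 126.6) and 286.2 (218.9 to 367.6), and in the Epcam gate at 83.62, 54.28 and 45.26. None of the 17 mesenchymal sums exceeded both reference gates. Macrophages can express Tgfbi, so the Ptprc gate is not a clean background for it, and this does not place the sums at background. The Mmp3 gate came closest, with 162.3 CPM (133.8 to 195.1), 49.36 (30.15 to 76.23) and 246.7 (202.8 to 297.4). At P15 and 8 weeks its interval lay above that of the Epcam gate (79.03 to 88.4 and 35.08 to 57.48).

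Against the mean of the other gates, Tgfbi was 2.58 ± 0.66 higher on the log2 scale in the Mmp3 gate (adjusted p = 0.0185 from edgeR), where 9.39% of genes were higher and 5.81% lower. The call was lost without P25 (adjusted p = 0.121) or 8 weeks (0.134). It lay at 62.79, 40.34 and 14.34 CPM in the Hand2 gate and in the Ibsp gate at 32.46, 9.70 and 6.71. The lowest level, 0.621 CPM, was that of the Ifitm5 gate at 8 weeks, from 2 UMIs. The Ifitm5 gate was lower than the others by -2.44 ± 0.85 on the log2 scale, which did not pass (adjusted p = 0.0795 from edgeR) but did with the library block (adjusted p = 0.0117). With the block 1268 of 12450 genes were lower there, against 683 without it.

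Tnn encodes a tenascin best known from bone, tooth and stem cell niches. The Hand2 gate held it at 1606 CPM (1567 to 1645), 3660 (3621 to 3699) and 4878 (4809 to 4947), above every other mesenchymal sum of the same library. The Pappa2 gate followed with 446.0 CPM (434.1 to 458.1) at P15 and 2914 (2779 to 3054) at P25. At P25, 21 of its 29 cells passed no other mesenchymal gate, and they held 158 of its 1745 Tnn UMIs. The Ibsp gate held 123.7 CPM (117.9 to 129.7), 856.0 (841.9 to 870.3) and 1361 (1335 to 1387), and the Ifitm5 gate 33.23 (29.74 to 37.01), 145.8 (140.5 to 151.2) and 99.69 (89.08 to 111.2). Background in the Ptprc gate was 56.44, 129.4 and 18.77 CPM, so that Tnn in the Ifitm5 gate was under it at P15 and overlapped its interval (118.7 to 140.7) at P25. In the Epcam gate it was 21.9 (19.58 to 24.41), 106.7 (102.6 to 110.9) and 22.97 (15.91 to 32.1), below the Ifitm5 gate in each library. The 5% of Ptprc-gate cells with the most Tnn UMIs held 84.37% of them at P15 and 73.9% at P25.

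Tnn was 2.95 ± 0.67 higher in the Hand2 gate on the log2 scale than in the mean of the others (adjusted p = 0.0258 from edgeR). Tnn is among the markers that the study drew from these libraries for the cell class it named with Hand2, so this difference is not independent of that choice. The call was lost without P25 (adjusted p = 0.161), without 8 weeks (0.261) and without the Rgs5 gate (0.0622). With the library block, Tnn also passed as lower in the Ifitm5 gate (-2.90, adjusted p = 0.00022 from edgeR) and the Rgs5 gate (-1.59, adjusted p = 0.017) and higher in the Pappa2 gate (1.85, adjusted p = 0.0235). Of 12450 genes, 1268 were lower in the Ifitm5 gate with the block, 93 lower in the Rgs5 gate and 75 higher in the Pappa2 gate. No neighbors in the order Hand2, Pappa2, Ibsp, Mmp3, Rgs5 and Ifitm5 differed past the threshold without the block, and of all pairs of gates only Hand2 and Ifitm5 did (log2 difference of the Ifitm5 gate from the Hand2 gate -4.89, adjusted p = 0.0168 from edgeR).

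Part of the Tnn signal of the Ibsp gate came from cells that also passed the Hand2 threshold, which made up 2.78%, 31.06% and 27.99% of that gate. In them Tnn lay at 980.8, 1120 and 1567 CPM. In the remaining Ibsp-gate cells it lay at 94.3, 721.1 and 1256 CPM, and in those without any Hand2 UMI at 88.58, 654.2 and 842.8 CPM. The order of the libraries was therefore the same in Ibsp-gate cells without a Hand2 UMI. Postn differed little between cells with and without Hand2 in the later libraries, with 2122 against 2359 CPM at P25 and 3130 against 3128 at 8 weeks, but at P15 it was 1917 CPM in the 24 cells with Hand2 and 879.7 in the others.

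The share of cells with a UMI was compared after each cell had been thinned to 3000 UMIs. For Tnn it was 65.83%, 91.81% and 98.03% in the Hand2 gate and 17.06%, 68.24% and 81.97% in the Ibsp gate. In the Ifitm5 gate it was 5.66%, 17.22% and 21.94%, against 5.58%, 16.36% and 0.0% (0 of 16 cells, upper limit 20.59%) in the Ptprc gate. For Postn the shares were 80.9%, 93.49% and 96.07% in the Hand2 gate, 67.06%, 91.73% and 96.22% in the Ibsp gate and 26.37%, 27.27% and 31.65% in the Ifitm5 gate, against 18%, 21.82% and 6.25% in the Ptprc gate. Without thinning, the Tnn shares of the Ibsp gate were 39.86%, 87.02% and 90.33% and those of the Ptprc gate 16.22%, 35.75% and 15.79%. Over the 5 genes, 38 of 85 thinned shares had an interval above that of the Ptprc gate of the same library. The same count was not made over all genes. It is therefore, like the counts of sums above the reference gates, a description and not a trait of these genes.

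**Figure D3:**
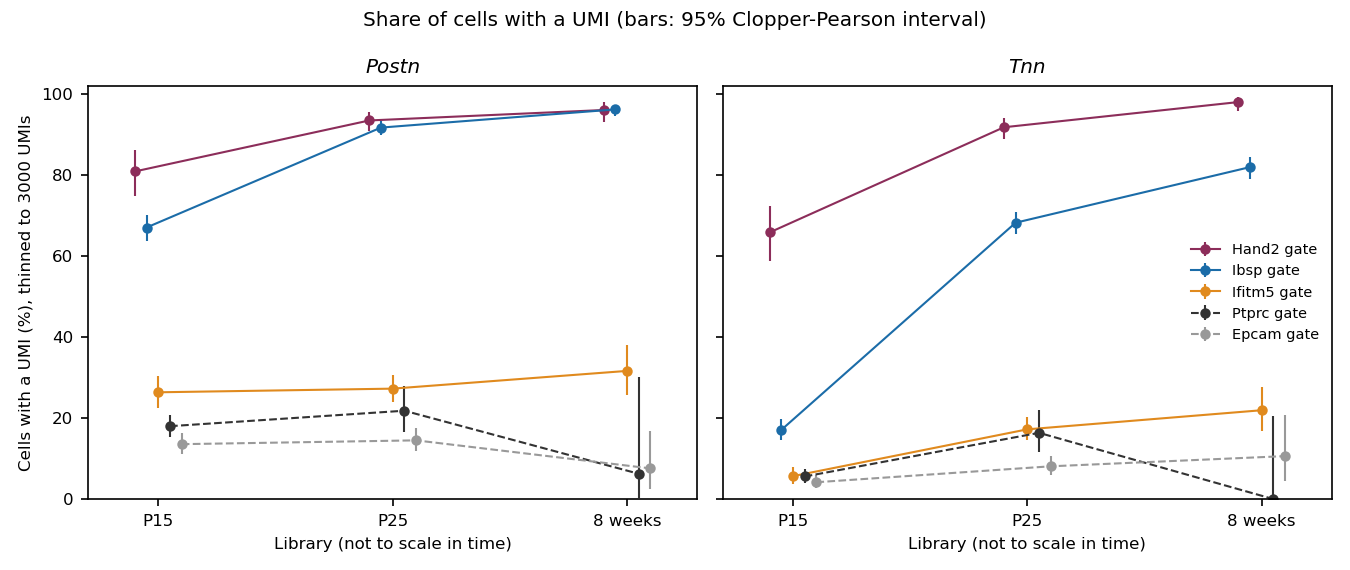
Share of cells with a UMI of Postn (left) or Tnn (right) after thinning to 3000 UMIs, by library on the x axis, with bars for the 95% Clopper-Pearson interval and dashed lines for the Ptprc and Epcam gates. The Ibsp gate moves from 17.06% to 81.97% for Tnn while the Ifitm5 gate stays near the dashed background lines at P15 and P25.

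Within a gate, the levels of single cells spread widely. The median Ibsp-gate cell held Postn at 478.2, 1481 and 2325 CPM, and the median for Tnn was 0.0, 497.4 and 921.0 CPM. The 5% of Ibsp-gate cells with the most Tnn UMIs held 54.08%, 33.06% and 24.27% of them, so the signal was spread over more cells in the later libraries. Cells with a Postn UMI more often had a Tnn UMI: 21.38% against 8.27% of those without Postn in the Ibsp gate at P15, 71.39% against 33.33% at P25 and 83.88% against 33.33% at 8 weeks. Only 30 Ibsp-gate cells lacked Postn at 8 weeks, and these shares are a description of cells from the same library.

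The ratio of Postn to Tnn UMIs is read here only between gates and libraries, since the capture of transcripts differs between genes. In the Hand2 gate it was 1.53 (1.48 to 1.58), 1.39 (1.37 to 1.41) and 1.16 (1.14 to 1.19). In the Ibsp gate it was 7.39 (7.02 to 7.78), 2.66 (2.61 to 2.71) and 2.3 (2.25 to 2.35). In the Ptprc gate the ratio was 4.60 (4.23 to 5.02), 2.85 (2.58 to 3.15) and 2.0 (0.536 to 9.08), and in the Epcam gate 4.77 (4.23 to 5.39), 2.41 (2.3 to 2.52) and 0.941 (0.562 to 1.57), so that the 2 reference gates differed at P25. At P15 and P25 the Hand2 gate lay below both with no overlap of intervals. The Ifitm5 gate, with 5.85 (5.20 to 6.59), 1.94 (1.85 to 2.03) and 2.58 (2.27 to 2.95), overlapped the Epcam gate at P15 and lay below both at P25.

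Tnc (ENSMUSG00000028364, chromosome 4 from 63959785 to 64047015) had another distribution, with its highest means in the Rgs5 and Mmp3 gates. In the Rgs5 gate it lay at 190.0 CPM (178.6 to 201.8), 478.8 (449.6 to 509.4) and 547.7 (514.7 to 582.2). In the Mmp3 gate it ran the other way, with 465.4 CPM (416.1 to 518.9), 288.8 (238.8 to 346.1) and 89.72 (64.1 to 122.2). The Mmp3 marker list in this gate summed to 17880, 2429 and 1763 CPM, and 14 of its 31 cells at 8 weeks had a Pi16 UMI. The part of such differences between its cells in the Tnc values was not tested. The Epcam gate held 208.4, 110.4 and 129.7 CPM and the Ptprc gate 64.23, 83.47 and 0.0. Only 5 of the 17 mesenchymal sums had an interval above both reference gates. The median Epcam-gate cell held 148.6, 68.44 and 52.63 CPM of Tnc, so that gate may not be a clean background for it. The Ibsp gate held 99.14, 112.5 and 96.39 CPM, but at the stricter marker threshold it was 2.07 times its P15 level at P25 and 1.78 times at 8 weeks. The Hand2 gate held 72.94, 65.82 and 46.6.

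Tnc was 1.90 ± 0.33 higher on the log2 scale in the Rgs5 gate than in the mean of the others (adjusted p = 0.00727 from edgeR), where 3.25% of genes were higher. The call was lost without P25 (adjusted p = 0.28) or 8 weeks (0.075), the libraries in which Rgs5-gate cells held more Tnc and, as given above, few mural transcripts, whose part in the result was not tested. By pairs, Tnc differed from the Rgs5 gate by -1.93 on the log2 scale in the Ibsp gate (2.42% of genes lower), -2.63 in the Ifitm5 gate and -2.72 in the Hand2 gate (2.06%), and from the Mmp3 gate by -2.04 in the Ifitm5 gate and -2.13 in the Hand2 gate (8.02%), all past the threshold. In the Mmp3 gate Tnc was 1.19 ± 0.35 higher (adjusted p = 0.0355 from edgeR), and this was lost with the library block (adjusted p = 0.055), without P15 (0.373) and without P25 (0.217). The Hand2 gate, the lowest by mean level, was -1.37 ± 0.41 from the others and did not pass (adjusted p = 0.0739 from edgeR). In thinned cells, 29.02%, 53.6% and 68.05% of the Rgs5 gate and 62.5%, 41.67% and 19.35% of the Mmp3 gate had a Tnc UMI, against 36.67%, 23.1% and 24.24% of the Epcam gate.

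Tnxb (ENSMUSG00000033327, chromosome 17 from 34670535 to 34719815) was nearly absent from most gates. In the Ibsp, Ifitm5, Hand2 and Rgs5 gates it ranged from 0.0 to 3.84 CPM, and all 3 Ptprc sums held 0.428 CPM or less. In the Mmp3 gate no UMI was found in the 48 cells at P15 or the 24 cells at P25, while the 31 cells at 8 weeks held 301 UMIs, or 675.1 CPM (601.0 to 755.9). Against a floor of 3 UMIs per library, that is at least 156.7-fold higher than at P15 and at least 91.18-fold higher than at P25. The P25 value depends on the marker minimum: with 2 Mmp3 UMIs instead of 3, the gate held 133 Tnxb UMIs in 35 cells at P25 and 310 in 40 cells at 8 weeks, and still none at P15. The Pappa2 gate held 2.02 CPM at P15, 41.75 at P25, where all 25 UMIs came from 2 of the 29 cells, both with Pi16, and 628.4 in its 12 cells at 8 weeks.

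Against the mean of the other gates the fitted log2 value of Tnxb in the Mmp3 gate was 6.57 ± 1.08, and a single library decided it. Without 8 weeks it became -6.76, and since the 2 remaining Mmp3 sums were at 0 neither value is a bound. All 14 Mmp3-gate cells with Pi16 at 8 weeks were among the 16 cells with Tnxb. Pi16, Cd34, Dpt, Clec3b and Col14a1 are known from adventitial or loose-tissue fibroblasts. In this 8-week sum they lay at 410.5, 827.7, 1169, 1178 and 778.3 CPM, against 1.44, 5.74, 234.1, 0.0 and 14.36 CPM in the P15 sum. In the P25 sum, without a Tnxb UMI, they lay at 2.47, 0.0, 886.0, 0.0 and 0.0 CPM. Dpt thus did not run with the others in this gate. The gate marker itself was lower at 8 weeks, as given above, and the part of these other transcripts in the Tnxb result was not tested.

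Between P15 and 8 weeks, 12 of 19 pairs of member and mesenchymal gate with a mean of at least 10 CPM moved past 2-fold, leaving out Tnxb in the Mmp3 gate, which had no UMI at P15. In the Ibsp gate Postn was 3.42 times (3.35 to 3.50) and Tnn 11 times (10.45 to 11.59) its P15 level at 8 weeks, where 2.53% of genes were past 2-fold higher, and Tgfbi was 0.207 times (0.152 to 0.276), where 2.52% were past it lower. In the Hand2 gate the ratios were 2.31 for Postn and 3.04 for Tnn (5.60% of genes higher) and 0.228 for Tgfbi (3.21% lower). In the Ifitm5 gate Tnn alone passed, with 3.0 (2.56 to 3.51) where 2.53% of genes were higher, and it was 4.91 times at the stricter marker threshold. Postn there was 1.32 times its P15 level, but 0.530 times (0.433 to 0.646) in cells that passed exactly 1 mesenchymal gate. The Pappa2 gate could be followed to P25 only, where Postn was 2.31 times and Tnn 6.53 times its P15 level (8.33% of genes higher) and Tgfbi 0.341 times (5.09% lower). In the cells that passed the Pappa2 gate alone, the ratio was 1.63 (1.55 to 1.72) for Postn, under 2-fold, and 1.10 (0.936 to 1.29) for Tnn. Tnxb in the Pappa2 gate was carried by 2 cells, as given above. In ungated cells Tnn was 5.42 times and Tnxb 16.5 times its P15 level at 8 weeks (4.80% of genes higher; 8.30 times for Tnxb as a mean over cells), Tgfbi 0.393 times (2.68% lower) and Postn 1.67 times.

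In the Rgs5 gate Tnn (3.29) and Tnc (2.88) were past 2-fold higher, with 5.34% of genes, and Tgfbi (0.124) past it lower, with 6.04%. At the stricter threshold these ratios were 5.12 for Tnn and 0.0237 for Tgfbi, the latter from a single UMI at 8 weeks. Postn in the Rgs5 gate was lower at 8 weeks than at P15 (0.621 times). In the Mmp3 gate Tnn (5.04) was past 2-fold higher, with 12.0% of genes, and Tnc (0.193) past it lower, with 12.3%, while Tgfbi was 1.52 times its P15 level. Tnn there was 2.55 times in cells of exactly 1 gate and 2.38 times at the stricter threshold, and Tnc 0.412 times as a mean over cells. As a sum over cells, Tnn was thus past 2-fold higher at 8 weeks in each of the 5 gates that could be compared. In the Mmp3 gate, however, 2 of the 31 cells held 80.43% of the Tnn UMIs at 8 weeks, so its ratio rests mostly on them. In the Ptprc gate, Tnn at P25 was 2.29 times its P15 level and past 2-fold higher with 13.7% of genes. At 8 weeks the reference gates held 18.77 (Ptprc) and 22.97 CPM (Epcam) of Tnn, against 56.44 and 21.9 at P15. The median gene moved by more than 0.1 on the log2 scale in the Ifitm5 gate at P25 (-0.29) and 8 weeks (-0.14), and at P25 also in the Mmp3 (-0.22), Rgs5 (-0.14) and Ptprc (0.23) gates and in ungated cells (-0.14).

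**Figure D4:**
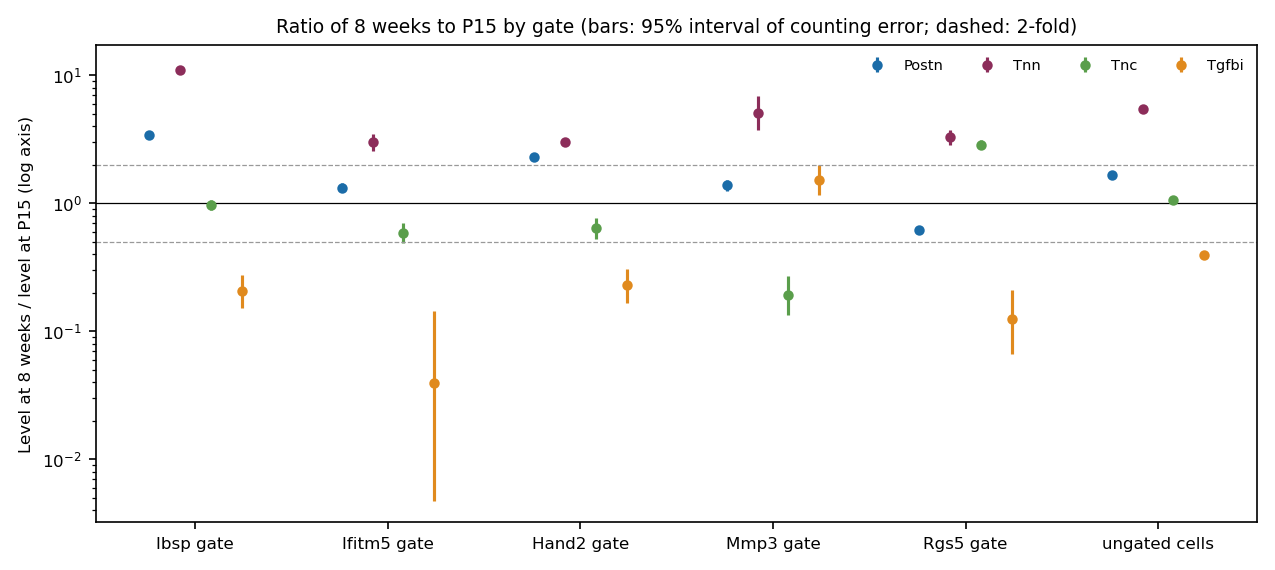
Ratio of the level at 8 weeks to that at P15 (log axis) for Postn, Tnn, Tnc and Tgfbi in 5 gates and in ungated cells, with bars for the 95% interval of counting error and dashed lines at 2-fold. Tnn lies above the upper dashed line everywhere, from 3.0 in the Ifitm5 gate to 11 in the Ibsp gate, and Tnc lies on opposite sides of 1 in the Rgs5 (2.88) and Mmp3 (0.193) gates.

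The cells that passed no gate were 67.0%, 62.36% and 66.64% of their library. They held 79.5%, 79.47% and 78.83% of its Tnc UMIs and 85.03%, 90.2% and 77.27% of its Tnxb UMIs. Their share of Tgfbi UMIs was 66.74%, 59.89% and 75.79%, of Postn 60.44%, 67.69% and 45.31% and of Tnn 50.64%, 51.56% and 40.2%. In these cells Postn lay at 913.8, 2606 and 1529 CPM, Tnn at 141.6, 710.2 and 767.8, Tnc at 304.0, 347.0 and 321.9, and Tnxb at 3.31, 11.24 and 54.51. Subsets of them were taken by at least 3 UMIs of any of 4 further markers, chosen after seeing the data and described without a test. A cell could fall in several of these subsets. Cells with Tnmd, a ligament and tendon protein, held Postn at 1625, 4791 and 3195 CPM and Tnn at 249.6, 1031 and 1205. Cells with Pcp4, a calmodulin-binding protein, held Tnc at 374.4, 471.0 and 456.7 CPM, and 56.01%, 50.19% and 53.35% of all Tnc UMIs of their library. They were 28.85%, 24.88% and 25.62% of its cells.

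Cells with Mia, a small secreted matrix protein, held the most Tnc, at 778.4 CPM (743.3 to 814.7), 622.8 (605.3 to 640.7) and 570.1 (538.3 to 603.2), and at P15 also more Tgfbi, 385.2 CPM (360.6 to 411.0), than the Ptprc gate. Cells with Pi16, a peptidase inhibitor of fibroblasts, held little Tnc, at 56.92, 26.28 and 18.05 CPM, but Tnxb at 289.1 CPM (241.1 to 344.0), 559.6 (521.7 to 599.5) and 686.8 (649.9 to 725.3). These 34, 73 and 160 cells were 0.263%, 0.814% and 3.08% of their library and held 28.8%, 76.25% and 67.78% of its Tnxb UMIs. Ptprc was at 0 UMIs in them in all libraries, which follows largely from the gating, since cells with at least 2 Ptprc UMIs were gated first. A Pi16 UMI was also found in 291 of the 851 Ptprc-gate cells at P15, 2 of them with Tnxb. At P25 it was found in 149 of the 733 Ifitm5-gate cells, 1 of them with Tnxb. At 8 weeks the Tnxb intervals of the ungated Pi16 cells and the Mmp3 gate overlapped.

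**Figure D5:**
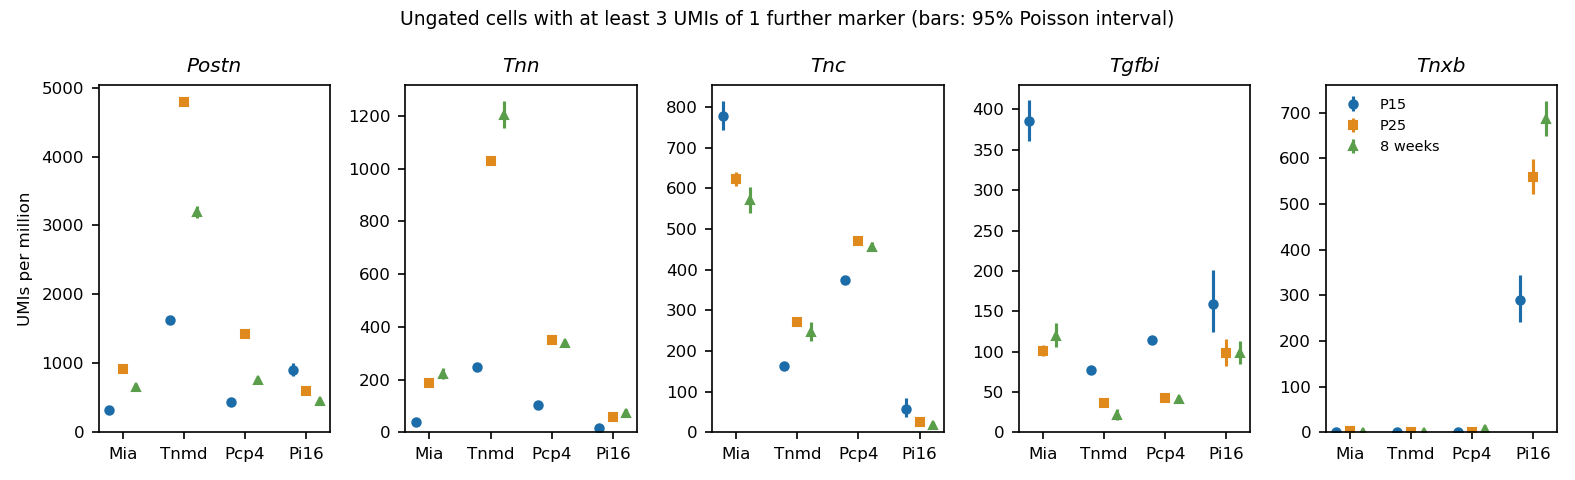
Levels of the 5 genes in CPM (linear axes that differ between panels) in ungated cells with at least 3 UMIs of Mia, Tnmd, Pcp4 or Pi16, by library, with bars for the 95% Poisson interval. Postn and Tnn are highest in Tnmd cells at P25 and 8 weeks, Tnc in Mia cells (778.4 CPM at P15), and Tnxb almost only in Pi16 cells (686.8 CPM at 8 weeks).

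Among the partners of these proteins, the list of receptors (10 of 13 genes tested) holds integrins, syndecan-4 and Ptprz1. In the Ibsp gate against the Ifitm5 gate 2 rose, Itga9 (1.60 on the log2 scale), an integrin chain that binds tenascin-C, and Itgb5 (1.32), a chain of a periostin receptor, and the list's median was 0.94 against 0.05 over all genes. Of all genes 1.05% rose in that comparison. In the Ifitm5 gate against the others 4 fell, with Itga8 (-2.90) and Itga9 (-2.61) the most, and Itgb8 (1.93) rose, where 5.49% of all genes fell and 7.20% rose. In the Mmp3 gate 5 rose, Itgb3 (3.73), Itga8 (3.28), Sdc4 (1.26), Itgav (1.01) and Itga5 (0.99), all binding fibronectin, tenascin or periostin, where 9.39% of all genes rose, and the list's median was 1.00 against -0.06. In the Hand2 gate Ptprz1 (-3.13), a phosphatase receptor of tenascins, fell (2.22% of all genes), and in the Rgs5 gate Itga9 (1.00) rose (3.25%), while in the Ibsp and Pappa2 gates against the others none of the 10 passed in edgeR.

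All 16 genes of the matrix partner list, fibrillar and associated collagens, fibronectin, proteoglycans and the enzymes Lox and Bmp1, were tested. In the Ibsp gate against the Ifitm5 gate Col3a1 (1.64 on the log2 scale) and Col6a1 (1.48) rose while Col1a1 (-1.84) and Col1a2 (-1.68) fell, and the list's median was -0.09 against 0.05 over all genes. Of all genes 1.05% rose and 1.78% fell in that comparison. The Ifitm5 gate against the others had 3 higher, Lox (2.10), the collagen cross-linking oxidase, Col1a1 (1.70) and Col1a2 (1.55), and 6 lower, from Col3a1 (-2.16) to Col12a1 (-1.21), beside 7.20% and 5.49% of all genes. In the Mmp3 gate 6 rose, beside 9.39% of all genes, and none fell. Among them were Col6a3 (2.89) and Col14a1 (5.23), a fiber-associated collagen and, as given above, a companion of Pi16, which lay at 14.36, 0.0 and 778.3 CPM in this gate and so was high at 8 weeks alone. In the Hand2 gate, where Postn was high, Lox (-1.84) fell and no partner rose, in the Pappa2 gate Col3a1 (1.29) rose, and in the Ibsp and Rgs5 gates against the others none passed in edgeR. Of all genes, 2.22% fell in the Hand2 gate and 0.434% rose in the Pappa2 gate.

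Of the 11 regulators, all tested, Twist1 (1.08 on the log2 scale), a bHLH factor known to act on Postn in ligament, was the only one higher in the Ibsp gate than in the Ifitm5 gate. Tgfb3, a TGF-beta ligand, was higher in the Hand2 (0.70), Rgs5 (0.73) and Pappa2 (0.96) gates and lower in the Mmp3 (-1.23) and Ifitm5 (-0.78) gates. Mkx (0.94), a ligament and tendon factor, was higher and the receptor Tgfbr1 (-0.70) lower in the Hand2 gate, while in the Mmp3 gate Prrx1 (1.69), Tgfb2 (1.28), Tgfbr2 (1.20) and Tgfbr1 (0.65) were higher. In the Ifitm5 gate Bmp2 (1.11) and Tgfb1 (0.80) were higher and Prrx1 (-1.61) and Tgfb2 (-1.33) lower, and Bmp2 (1.66) was the only regulator higher in the Ibsp gate against the others. Of all genes, 1.05% were higher in the Ibsp gate than in the Ifitm5 gate. Against the others, 2.67% were higher and 2.22% lower in the Hand2 gate, 9.39% and 5.81% in the Mmp3 gate and 7.20% and 5.49% in the Ifitm5 gate. In the Rgs5, Pappa2 and Ibsp gates 3.25%, 0.434% and 1.25% were higher. Beside the members, the family list adds Stab1, Stab2 and Tnr, of which Stab1 alone could be tested and passed in none of the contrasts of 1 gate with the others.

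Across the 17 sums, Postn and Tnn had a Pearson correlation of log2(CPM + 1) of 0.86, whereas Postn with Tgfbi had 0.44, Postn with Tnc 0.11 and Tnn with Tnc -0.18. The sums share libraries and gates, so these values are descriptions. Among 8401 genes with a mean of at least 10 CPM, Postn ran most like P2ry1 (0.93), Fam105a (0.92) and Matn2 (0.90), a matrix adaptor protein, and Tnn most like Ids (0.90), Crabp2 (0.89) and Pde3b (0.86). For Tnc these were Col8a2 (0.88), Apoe (0.88) and Shc1 (0.82), for Tgfbi Sec14l1 (0.90), Nsg1 (0.89) and Dcaf7 (0.89), and for Tnxb Clec3b (0.98), Cd34 (0.93) and Cdon (0.91), where the 8-week Mmp3 sum was the highest point for Tnxb.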

How the data were processed

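Single-cell 3' RNA sequencing was available for 3 libraries of sorted cells (P15, P25 and 8 weeks). For each library the authors deposited UMI counts per gene and cell from Cell Ranger, whole numbers without normalization, and the submitters' processing notes name Cell Ranger 6.1.2 and mm10. The annotation release is not given in the sources used here. A P6 library is not analysed here.

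No cell was removed from the deposited matrices and no doublet caller was run, and genes were joined by identifier. The gates of Ptprc, Epcam and Pecam1 needed at least 2 UMIs. The others needed at least 3 UMIs of the marker and a level at or above the highest, over the libraries, of the 98th percentile in Ptprc or Epcam gate cells, which was 6544 CPM for Ibsp, 241.0 for Ifitm5, 58.66 for Hand2, 44.8 for Mmp3, 161.6 for Rgs5 and 46.84 for Pappa2. A cell went to the first gate it passed in the order Ptprc, Epcam, Pecam1, Rgs5, Ifitm5, Ibsp, Pappa2, Mmp3, Hand2. Sums needed 20 cells, which left 17 sums. They were compared with edgeR 4.0.16 (TMM, filterByExpr, robust quasi-likelihood test, Benjamini-Hochberg adjustment over 12450 genes, threshold 0.05) with the gate as the only term. The p-values measure the spread between libraries of different age. All 5 members passed the filter, Tnxb through the sums where it is high. The scripts were tested on simulated data.

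Sums of a library come from the same animals, and their deviations from the gate means correlated across genes (median r over 10 pairs of gates 0.31 at P15, 0.50 at P25 and 0.27 at 8 weeks, lowest 0.13), so the pairing holds, and a fit with a library block was tried. Other alternatives were DESeq2 1.42.0, other size factors, no low-count filter, other gate rules, quality-filtered cells (500 genes or more, mitochondrial UMIs up to 20%), and each library left out. Shares carry Clopper-Pearson intervals.

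The genes named are the 5 members, the gate markers, the mural marker Notch3, genes of the lists of receptors, matrix partners and regulators that passed the test, the other 3 genes of the family list, and the 3 genes most correlated with each member. The Pi16 companions and the markers of ungated cells were chosen after their values were seen. The members and lists were chosen with earlier results of these data known. R 4.3.3, Python 3.11.15, numpy 2.4.6, scipy 1.17.1, pandas 2.3.3 and matplotlib 3.10.9 were used.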

Additional observations from a re-analysis of the deposited data

Results flagged for a closer look

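The change of Tnc between P15 and 8 weeks took opposite directions in different gates. Both later libraries were higher than P15 in the Rgs5 gate, reaching 2.88 times at 8 weeks, and in ungated cells, reaching 1.06 times, and both were lower in the Ifitm5 gate, at 0.586 times, and in the Mmp3 gate, at 0.193 times. The ratio of the Ifitm5 gate was 0.327 at the stricter threshold and 0.159 in cells of exactly 1 gate. The difference between gates was not tested, since each time point is 1 library. The markers of the Rgs5 and Mmp3 gates were also lower at 8 weeks than at P15, as given above.

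Tnxb reached 628.4 CPM in the Pappa2 gate at 8 weeks, a sum of 12 cells that was too small for the tests, where the Ptprc gate of the same library held no Tnxb UMI. In this sum Pi16 lay at 1537 CPM, and all 6 cells with Tnxb also had Pi16.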

How the results depend on the processing

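Of 322 values under another setting, 262 were labelled the same. For a test this means the same direction and side of the threshold, whether it passed or not. For a ratio with time it means within counting error, and for a count within 1.5 times. The count of genes that differed between the Ibsp and Ifitm5 gates was 353, and it was 783 with DESeq2, 1054 with cells that passed exactly 1 mesenchymal gate, 961 with the library as a block, and 1 to 614 with a library left out (1 without P25, 46 without 8 weeks, 614 without P15). The log2 difference of Postn in that comparison was 2.55 to 3.08 with a library left out, and it lost its call without P25 (2.99) or 8 weeks. That of Tnn was 2.21 to 3.29, passing without P15 (2.92), and 2.66 with the block, where it passed too. Of the 30 contrasts of member and gate, 7 passed, that of Tnxb included, against 11 with the block and 1 to 9 with a library left out. Without the Rgs5 gate, a setting added after seeing the data that leaves fewer contrasts, 4 passed. The block also raised the calls over all genes, as given above. Tnxb in the Mmp3 gate ran from -6.76 without 8 weeks to 7.54. Removing a library also removes residual degrees of freedom. Without P15, Tnn also passed in the Ifitm5 and Rgs5 gates and Tnc in the Ifitm5 gate. Tnc in the Mmp3 gate lost its call in cells of exactly 1 gate (0.99) and at the stricter threshold (1.46). Tnn in the Pappa2 gate was 1.76, and 0.00038 in cells of exactly 1 gate. The block changed no other call of a member against the other gates than those given with each gene. Single ratios with time moved more, as given with each gene. The 12 pairs past 2-fold with time and the 38 shares above the Ptprc gate stayed within 1.5 times of these counts. Depth limits Tgfbi and Tnxb most, with 2 and 4 UMIs in the Ifitm5 gate at 8 weeks.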
